A study of Homo sapiens with 3 samples.

Results

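Epithelial sodium transport was described through 9 genes chosen by name: the epithelial sodium channel subunits *SCNN1A*, *SCNN1B*, *SCNN1G* and *SCNN1D*, the channel regulators *NEDD4L* and *SGK1*, the sodium pump subunit *ATP1B1*, the chloride channel gene *CFTR* and the cotransporter gene *SLC12A2*. All 9 have a row among the 23131 gene rows of the deposited table. All groups were HCT-116 cells, an established human colon carcinoma line. Its *APC* is wild-type and its β-catenin carries CTNNB1ΔSer45, a deletion that protects the protein from degradation. Pooled anti-*APC* siRNA (siAPC) or pooled scrambled siRNA was given with Dharmafect 2 on consecutive days, a control received no siRNA (titled untransfected, but described in another label as reagent alone), and all were harvested 48 hours after the second transfection, with 1 library each from 3 treatments. Only the siAPC and untransfected libraries were analysed here, so every ratio below is siAPC over untransfected, and with these libraries alone silencing of *APC* and exposure to siRNA as such cannot be told apart. The gene set was assembled around *SCNN1A* because of its difference between these libraries, so all values are a description and no test is given.

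The epithelial sodium channel (ENaC) is the apical entry path for sodium in the distal colon and other tight epithelia, and it is built from alpha, beta and gamma subunits. Aldosterone and glucocorticoids raise its activity in part through the kinase SGK1, which phosphorylates the ubiquitin ligase NEDD4-2 (the product of *NEDD4L*) and so limits removal of the channel from the membrane. Sodium then leaves the cell across the basolateral membrane through the Na/K-ATPase, while CFTR and the basolateral cotransporter NKCC1 (the product of *SLC12A2*) carry chloride for secretion.

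Levels are FPKM, a density of sequenced fragments that is scaled to transcript length and to library size. The table lists no read counts. In low rows, however, what 1 read is worth can be seen as a step, which was higher by 0.13 on the log2 scale in the siAPC library and from which about 25100000 reads were estimated without siRNA and 22900000 with siAPC. Read numbers below are estimates from these depths and the length of 1 annotated transcript, and the 95% intervals (exact Poisson for a level, exact binomial for a ratio) cover counting error only. With 1 library per group, no difference has a replicate check. *APC* itself had 3.43 FPKM in the siAPC library and 9.15 FPKM in the untransfected library, so 37.5% of its transcript level remained. Markers of cell types were read beside the label colon carcinoma. They were chosen after seeing their values, so they are no test of that label. *EPCAM*, *CDH1*, *KRT8*, *KRT18*, *KRT19* and *CDX2* were above 1 FPKM in both libraries, whereas *KRT20* reached at most 0.718 FPKM and *CDX1* and *VIL1* were listed at 0 in the untransfected library. Markers of other cell types were low. The 5 endothelial markers summed to 0.111 FPKM in siAPC and 0.136 FPKM in untransfected cells, the 6 fibroblast markers to 3.13 FPKM and 2.88 FPKM, nearly all of it *COL1A1*, and the 6 leukocyte markers to 5.33 FPKM and 9.17 FPKM, nearly all of it *CD68*, while *PTPRC* had at most about 2 reads.

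Among the channel subunits, *SCNN1A* was well expressed and lower with siAPC, and its partner subunits were hardly detected in either library. *SCNN1A*, which encodes the alpha subunit of the channel, had 9.83 FPKM in the siAPC library (interval 9.12 to 10.6, about 708 reads) and 20.0 FPKM in the untransfected library (interval 19.0 to 21.0, about 1574 reads). The siAPC library thus held 49.2% of the untransfected level. The log2 ratio was -1.02, with a counting interval of -1.15 to -0.89. *SCNN1A* lies on chromosome 12 of GRCh37 from 6456009 to 6486896, on the minus strand, and its annotated main transcript has 13 exons and 3149 bases. In these bulk libraries fewer cells expressing the gene and less RNA per cell cannot be told apart.

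The beta and gamma subunits were at or below 3 estimated reads in each library, so no fold is given for them. *SCNN1B* had 0.0331 FPKM with siAPC and 0.0302 FPKM without, about 2 reads in each library. *SCNN1G* had 0.0120 FPKM with siAPC, about 1 read, and was listed at 0 in untransfected cells, where 3 reads would correspond to 0.0344 FPKM. Both genes lie on the plus strand of chromosome 16 of GRCh37, *SCNN1G* from 23194066 to 23228204 and *SCNN1B* from 23289552 to 23392615. A difference in the beta or gamma transcript between the libraries was not detectable at this depth.

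*SCNN1D* encodes the delta subunit, which can take the place of alpha. It had 0.198 FPKM in the siAPC library (interval 0.110 to 0.337, about 14 reads) and 0.349 FPKM in the untransfected library (interval 0.233 to 0.514, about 27 reads). Its log2 ratio of -0.82 points the same way as that of *SCNN1A*, but the counting interval runs from -1.86 to 0.17 and includes 0. The level of *SCNN1A* was 57.3 times that of *SCNN1D* in untransfected cells and 49.6 times with siAPC. *SCNN1D* lies on chromosome 1 of GRCh37 from 1215816 to 1227409, on the plus strand.

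**Figure D1:**
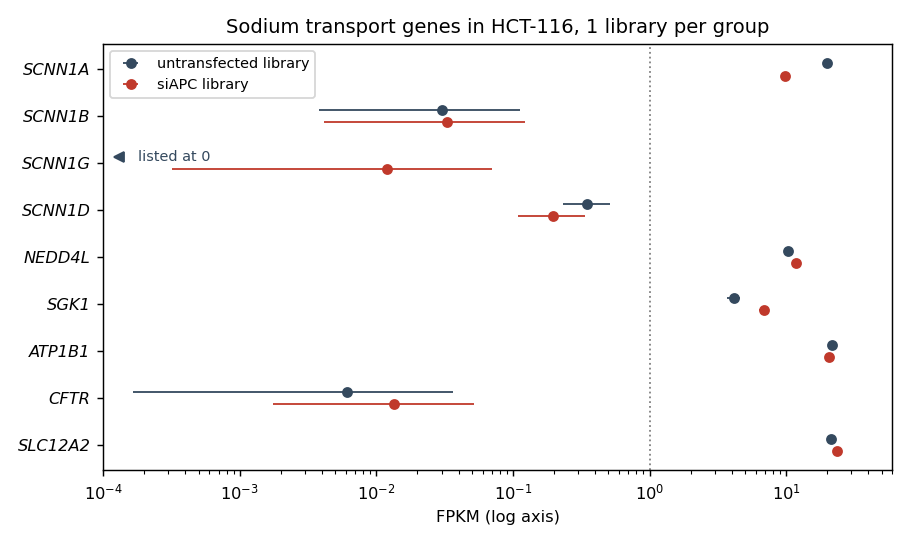
FPKM (log axis) of the 9 genes in the untransfected library (dark) and the siAPC library (red), with bars for the 95% counting interval and a dotted line at 1 FPKM. The *SCNN1A* points stand apart at 20.0 and 9.83 FPKM, *SGK1* is displaced the other way, and *SCNN1B*, *SCNN1G* and *CFTR* lie lowest, with *SCNN1G* listed at 0 in untransfected cells.

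Of the channel regulators, *SGK1* was higher with siAPC. This kinase gene had 6.87 FPKM in the siAPC library (interval 6.29 to 7.49, about 510 reads) and 4.15 FPKM in the untransfected library (interval 3.71 to 4.61, about 337 reads). The siAPC value was 1.65 times the untransfected one, with a counting interval of 1.44 to 1.91, so the counting intervals of the levels do not overlap while that of the ratio reaches below 1.5-fold. Its log2 ratio was 0.73 (0.53 to 0.93). *SGK1* lies on chromosome 6 of GRCh37 from 134490386 to 134639250, on the minus strand, and the table gives 1 row for the whole gene.

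The promoter table from RefSeq (GRCh38.p14) holds 3 separate start windows for *SGK1*, and they are shown because *SGK1* was past 1.5-fold and its single row adds up transcripts from all starts. Each line gives the 250 bases before a start, 5′ to 3′ on the gene's strand, all in lower case because none of the motifs searched was found.

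SGK1 upstream start, chr6:134318113-134318362, minus strand: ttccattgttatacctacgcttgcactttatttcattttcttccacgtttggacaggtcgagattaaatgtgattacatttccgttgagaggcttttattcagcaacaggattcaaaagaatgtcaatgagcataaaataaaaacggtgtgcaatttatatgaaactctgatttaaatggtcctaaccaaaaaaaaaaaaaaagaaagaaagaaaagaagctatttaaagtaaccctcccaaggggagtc
SGK1 middle start, chr6:134177862-134178111, minus strand: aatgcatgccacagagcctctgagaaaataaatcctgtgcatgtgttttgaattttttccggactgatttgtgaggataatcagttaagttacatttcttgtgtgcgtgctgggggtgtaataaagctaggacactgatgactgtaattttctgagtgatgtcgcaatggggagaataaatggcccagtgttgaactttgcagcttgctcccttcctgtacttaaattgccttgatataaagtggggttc
SGK1 downstream start, chr6:134174867-134175116, minus strand: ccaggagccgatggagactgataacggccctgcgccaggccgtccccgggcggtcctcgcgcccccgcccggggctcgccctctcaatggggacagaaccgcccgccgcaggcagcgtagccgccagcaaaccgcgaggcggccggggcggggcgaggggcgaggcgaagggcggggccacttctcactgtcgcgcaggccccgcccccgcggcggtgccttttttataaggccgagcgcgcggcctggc

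The windows differ in base composition, with 33.6% G and C before the upstream start, 41.6% before the middle start and 76.0% before the downstream start. They were searched on both strands for the TCF7L2 motif (NNCAAAG with each N an A or T), the AP-1 motif (TGANTCA with N a C or G) and the glucocorticoid receptor hexamer (AGAACA). Of 35116 windows of this length in the table, 12% hold a TCF7L2 motif, 4.2% an AP-1 motif and 12.4% the glucocorticoid receptor hexamer. The table has 12 windows for 6 of the 9 genes and none for *SCNN1A*, *SCNN1G* and *SCNN1D*. None of the 12 holds a TCF7L2 or AP-1 motif, and 1 of the 5 *NEDD4L* windows holds the hexamer. A match or its absence describes the letters of these windows and is no measure of binding.

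*NEDD4L*, whose product marks ENaC for removal, had 11.9 FPKM in the siAPC library (interval 11.4 to 12.3) and 10.3 FPKM in the untransfected library (interval 9.89 to 10.8). It was 1.15 times the untransfected level, with a counting interval of 1.08 to 1.22. This is above 1 by counting alone but small beside the differences of *SCNN1A* and *SGK1*. Its paralog *NEDD4* went the other way, with 4.92 FPKM in siAPC and 7.82 FPKM in untransfected cells, a log2 ratio of -0.67 (-0.81 to -0.53). The level of *NEDD4L* was therefore 1.32 times that of *NEDD4* in the untransfected library and 2.41 times in the siAPC library. *NEDD4L* lies on chromosome 18 of GRCh37 from 55711458 to 56068772, on the plus strand. The paralogs of *SGK1* had lower values in the siAPC library. *SGK3*, at a locus of 4 rows in the table, had 7.0 FPKM against 9.12 FPKM, and *SGK2* had 0.157 FPKM against 0.291 FPKM with about 7 and 14 reads and a log2 interval of -2.42 to 0.54 that includes 0.

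The pump and chloride genes were close to their untransfected levels or barely expressed. *ATP1B1*, the beta1 subunit that brings the Na/K-ATPase to the membrane, had 20.5 FPKM in the siAPC library and 21.6 FPKM in the untransfected library. Its log2 ratio of -0.08 has a counting interval of -0.20 to 0.05, which includes 0. The gene lies on chromosome 1 of GRCh37 from 169074935 to 169280230, on the plus strand. Cuffdiff placed it at 1 locus with *NME7*, which overlaps it on the opposite strand and had 21.7 FPKM with siAPC and 24.4 FPKM without. Use of strand in counting is not stated, so reads of the overlap cannot be told apart. *ATP1B1* was not the main beta subunit transcript of these cells. *ATP1B3* had 117 FPKM in siAPC and 100.4 FPKM in untransfected cells, which is 5.68 and 4.64 times the level of *ATP1B1*.

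*SLC12A2*, which loads the cell with sodium, potassium and chloride from the basolateral side, had 23.4 FPKM in the siAPC library (interval 22.6 to 24.2) and 21.4 FPKM in the untransfected library (interval 20.7 to 22.1). The siAPC value was 1.09 times the untransfected one, with a counting interval of 1.04 to 1.15. It lies on chromosome 5 of GRCh37 from 127419458 to 127525369, on the plus strand. *CFTR*, the apical chloride channel, had 0.0134 FPKM with siAPC and 0.00611 FPKM without, about 2 reads and 1 read. Both values are under that of 3 reads, 0.0216 FPKM and 0.0197 FPKM respectively, so no fold is given and a difference was not detectable. *CFTR* lies on chromosome 7 of GRCh37 from 116927174 to 117356025, on the plus strand.

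The order of the genes by level differed between the libraries. In untransfected cells the counting intervals of *ATP1B1* (20.4 to 22.9 FPKM), *SLC12A2* and *SCNN1A* overlapped, *SLC12A2* and *SCNN1A* only from 20.7 to 21.0 FPKM. *NEDD4L* and then *SGK1* followed without overlap. In the siAPC library *SLC12A2* was above *ATP1B1* (interval 19.3 to 21.8 FPKM) without overlap, and *SCNN1A* lay below *NEDD4L*, also without overlap. The level of *SLC12A2* was 1.07 times that of *SCNN1A* without siRNA and 2.38 times with siAPC. *SCNN1D*, *SCNN1B*, *CFTR* and *SCNN1G* were under 1 FPKM in both libraries.

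**Figure D2:**
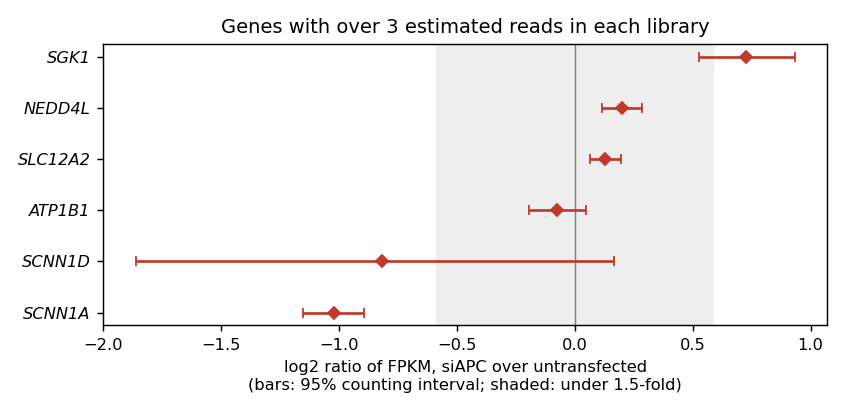
Log2 ratio of FPKM, siAPC over untransfected, for the 6 genes with over 3 estimated reads in each library, with bars for the 95% counting interval and shading for changes under 1.5-fold. *SCNN1A* lies wholly below the shaded range, *SGK1* lies above it but its bar enters it, and the bar of *SCNN1D* spans 0.

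A mean of at least 1 FPKM and a value above 0 in both libraries was met by 5 of the 9 genes (*SCNN1A*, *NEDD4L*, *SGK1*, *ATP1B1* and *SLC12A2*). Of these, 1 was at least 1.5-fold lower with siAPC (*SCNN1A*) and 1 at least 1.5-fold higher (*SGK1*). Over the 12063 rows of the table that met the same criteria, 9.17% differed by at least 1.5-fold, 6.61% being lower and 2.56% higher with siAPC. Nothing is read from the count of 2, since the genes were assembled with these values known. The median log2 ratio of the 5 genes was 0.13 and that of all such rows was -0.05. *SCNN1A* was chosen for its difference, so its rank among rows of like level only describes it. Among 4569 rows with an untransfected FPKM within 2-fold of its own, 30 (0.657%) had a log2 ratio as low, itself included. The quartiles of these rows were -0.20 and 0.10. For *SGK1*, 57 of 3247 rows of like level (1.76%) had a log2 ratio as high. Neither rank is a test, because the genes were assembled with these values known.

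**Figure D3:**
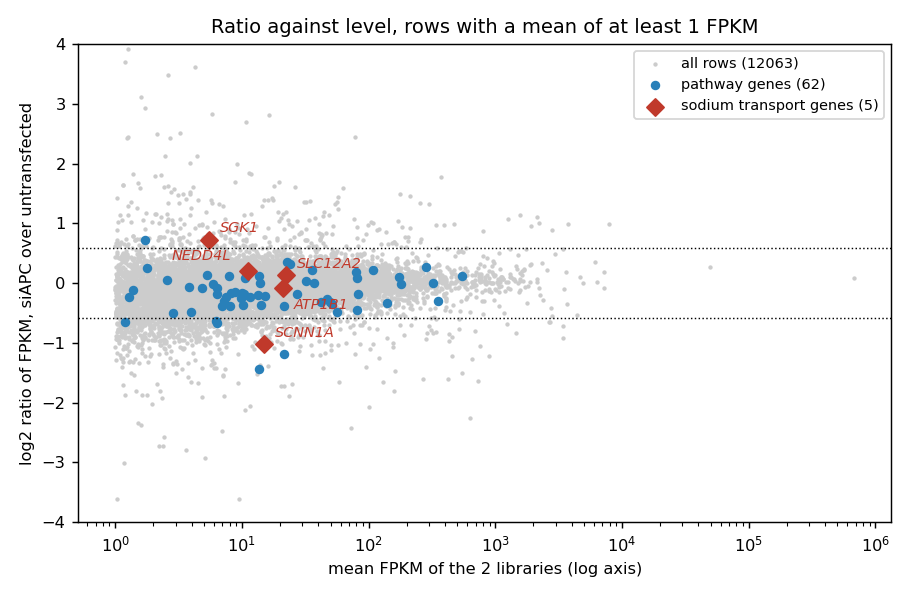
Log2 ratio of FPKM, siAPC over untransfected, against the mean FPKM of both libraries (log axis) for 12063 rows (grey; 1 row lies outside the plotted range), 62 other epithelial transport genes (blue) and 5 of the 9 genes (red diamonds). Dotted lines mark 1.5-fold, and *SCNN1A* and *SGK1* are the red points outside them, in opposite directions.

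By position, *SCNN1A* sits between a pair of tumor necrosis factor receptor superfamily genes that were also lower, as were 58.6% of all rows. *TNFRSF1A*, whose row ends 4725 bases away, had 20.7 FPKM in siAPC and 31.7 FPKM in untransfected cells, a log2 ratio of -0.62 (-0.73 to -0.50) that was just past 1.5-fold, but not once the median ratio of all rows is subtracted. *LTBR*, whose row begins 6833 bases away on the other side, had 33.1 FPKM and 41.2 FPKM, a log2 ratio of -0.32 (-0.41 to -0.23). The *LTBR* annotation in GENCODE 44 overlaps *SCNN1A* on the opposite strand, so the same limit holds for their shared stretch. The rows nearest to *SGK1*, *HMGA1P7* and *LOC154092*, were listed at 0 in both libraries. The rows most like *SCNN1A* by Euclidean distance over the log2 FPKM of the 2 libraries were the small nucleolar RNAs *SNORA75* (distance 0.063) and *SNORA49* (0.077) and the serine protease gene *KLK6* (0.089), which had 10.3 FPKM in siAPC and 20.7 FPKM in untransfected cells. With 2 libraries such likeness means only a similar pair of levels.

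The other genes of epithelial sodium and fluid transport were taken from 9 lists with 114 different genes, all with a row in the table, of which 62 passed the same criteria. At least 1.5-fold lower with siAPC were 5 of the 62 (*PRSS8*, *PLAU*, *WNK4*, *NEDD4* and *CA2*) and 1 was at least 1.5-fold higher (*KLF9*). These 6 are 9.68% of the 62, near the 9.17% of all rows. The median log2 ratio was -0.18 against -0.05 over all rows, and 43 of the 62 ratios (69.4%) were below 0, as were 58.6% of all rows.

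The proteases and inhibitors that act on ENaC were lower in all 7 cases that passed the criteria, with a median log2 ratio of -0.35. Over all rows 58.6% were lower, 6.61% by at least 1.5-fold, and the median was -0.05. The direction was not particular to this list, since all cation chloride cotransporters and potassium channels that passed were lower too. *PRSS8*, which encodes prostasin, a membrane-anchored serine protease that activates the channel, had 4.91 FPKM with siAPC and 7.59 FPKM without, a log2 ratio of -0.63 (-0.88 to -0.38). It is no longer past 1.5-fold once the median ratio of all rows is subtracted, which leaves 5 of the 6. *PLAU*, the urokinase gene, had 7.35 FPKM and 20.0 FPKM, a log2 ratio of -1.44 (-1.61 to -1.27). The table places it at a locus with 1 other gene. The remaining 5 were less than 1.5-fold lower. Matriptase (*ST14*) had 45.4 FPKM with siAPC and 57.8 FPKM without, and the proprotein convertase gene *FURIN* had 14.0 FPKM and 16.2 FPKM. The protease inhibitors *SPINT1* (37.6 FPKM and 46.8 FPKM) and *SPINT2* (123 FPKM and 155 FPKM) were lower by similar amounts, -0.31 and -0.34 on the log2 scale. *SPINT2* was the most abundant gene of the list.

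Of the steroid receptors and regulators, 19 of 21 passed and 2 (10.5%) were at least 1.5-fold lower, with none at least 1.5-fold higher. Over all rows 6.61% were lower by that much and 9.17% differed by that much in either direction. The 2 genes were *NEDD4* and *WNK4*, a kinase gene of the distal nephron salt pathway. *WNK4* had 0.938 FPKM in siAPC and 1.47 FPKM in untransfected cells (log2 ratio -0.64, interval -1.04 to -0.26). The glucocorticoid receptor gene *NR3C1* had 3.33 FPKM with siAPC and 4.66 FPKM without, a log2 ratio of -0.49. The mineralocorticoid receptor gene *NR3C2*, through which aldosterone acts, had a low level, 0.15 FPKM and 0.187 FPKM, about 20 and 27 reads. The scaffold gene *YWHAE* had the highest level of the list, 526 FPKM in untransfected cells and 573 FPKM with siAPC. *SGK1* is a glucocorticoid-induced gene, and the other listed genes of that kind did not share one direction. A part of glucocorticoid signalling in the level of *SGK1* was not tested. *KLF9* was higher with siAPC, at 2.13 FPKM against 1.29 FPKM (log2 ratio 0.72, interval 0.43 to 1.00), and *DUSP1* had 5.51 FPKM against 5.03 FPKM. *TSC22D3*, which encodes GILZ, was lower at 2.35 FPKM against 3.32 FPKM, and *FKBP5*, *PER1* and *ERRFI1* had log2 ratios of -0.27, -0.24 and -0.30. *ERRFI1* had the highest level of that list, 388 FPKM in untransfected cells.

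Among the remaining transporters, *CA2*, which encodes the cytosolic carbonic anhydrase that supplies bicarbonate and protons, had 13.1 FPKM with siAPC and 30.0 FPKM without. Its log2 ratio was -1.19 (-1.35 to -1.04), a lower level by 2.29-fold. The other 8 genes of the sodium and acid-base list that passed were within 1.5-fold, led in level by *SLC38A2* with 310 FPKM in siAPC and 257 FPKM in untransfected cells. All 5 cation chloride cotransporters other than *SLC12A2* that passed were between -0.19 and -0.09 on the log2 scale, among them *SLC12A7* (9.65 FPKM and 11.0 FPKM) and *SLC12A4* (7.76 FPKM and 8.73 FPKM). None of the 7 chloride channels and exchangers that passed reached 1.5-fold. Over all rows 9.17% did, so nothing is read from the counts of these short lists. The calcium-activated chloride channel gene *ANO1* had 25.4 FPKM with siAPC and 19.8 FPKM without, a log2 ratio of 0.36, and *CLIC1*, the most abundant of that list, had 324 FPKM in both.

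The potassium channels that set the driving force for these fluxes were within 1.5-fold in the 4 cases that passed. *KCNN4* had 12.3 FPKM in siAPC and 15.8 FPKM in untransfected cells and *KCNQ1* had 1.19 FPKM and 1.40 FPKM, while *KCNE3*, the partner of KCNQ1 in colonic crypts, was listed at 0 with siAPC and had about 1 read without. *AQP3* was the single aquaporin of 11 to pass, at 2.62 FPKM and 2.53 FPKM. The 5 pump genes that passed included *FXYD5*, at 68.4 FPKM with siAPC and 93.3 FPKM without (log2 ratio -0.45), and none reached 1.5-fold. With 9.17% of all rows past that fold, the counts of such short lists are not read as stability.

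**Figure D4:**
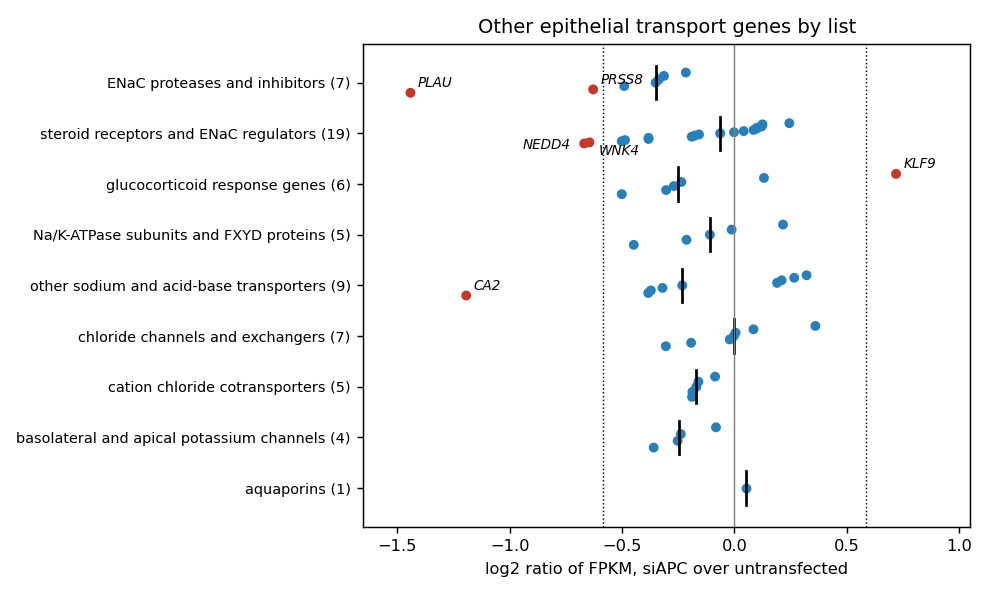
Log2 ratio of FPKM, siAPC over untransfected, for the other transport genes that passed the criteria, by list with the number of genes in parentheses (*TSC22D3* is in 2 lists). Each point is a gene, red if at least 1.5-fold apart and labelled, vertical bars are list medians and dotted lines mark 1.5-fold. *PLAU* and *CA2* lie lowest and *KLF9* highest.

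Most epithelial markers were lower as well. All 6 that passed the criteria had a log2 ratio below 0 (median -0.35), as did 58.6% of all rows. Of the 6, only *CDH1* was past 1.5-fold and the interval of *CDX2* (-0.28 to 0.05) includes 0. The 3 that did not pass had higher values with siAPC, *KRT20* at 0.718 FPKM against 0.475 FPKM and *VIL1* and *CDX1* at about 5 reads and 1 read against 0. In sum the 9 markers had 1295 FPKM in the siAPC library and 1649.9 FPKM in the untransfected library. *CDH1*, which encodes E-cadherin, had 12.1 FPKM with siAPC and 19.0 FPKM without, a log2 ratio of -0.65 (-0.75 to -0.55). The keratin genes *KRT18* and *KRT19* had log2 ratios of -0.45 and -0.41. Their part in the values of *SCNN1A* was not tested.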

How the data were processed

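RNA from HCT-116 cells was sequenced by the authors from single-read TruSeq libraries, 1 per condition, assigned to transcripts with Cufflinks and compared with Cuffdiff (hg19 per the labels; aligner, annotation and versions are not given in the sources used here). The deposited table holds FPKM for the siAPC and the untransfected library. It also holds the authors' natural log ratio, test statistic, p-value, q-value and significance call, none of which was used. The library from scrambled siRNA is not analysed here. The 9 genes, the gene lists and the tests were chosen with earlier results of these data known.

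The log2 ratio of FPKM was taken without a pseudocount, because a pseudocount shrinks low genes. A row counted as past the fold at 1.5-fold or more, with a mean of at least 1 FPKM and both values above 0. No test was made across libraries, since each group has 1. Depth was estimated from 311 rows with a mean under 0.1 FPKM whose ratio lay within 0.002 (log2) of the most common one. Of these, 123 had a known transcript length and implied a depth near the most common implied depth. They gave a median of 25100000 reads (quartiles 23100000 and 26100000). The quartiles thus cover only rows kept for a similar depth. The estimate depends on GENCODE 44 transcript lengths, and the intervals treat the depths as known. It was checked on simulated data drawn with the same lengths, which cannot show an error in those lengths. Coordinates are from GENCODE 44 on GRCh37, the same assembly as hg19, and 1-based. They can differ from the span of the measured row, as for *CFTR*, *SCNN1B* and *ATP1B1*. Symbols were matched directly or by an older symbol. Genes were named by rule: the 9 genes, *APC*, direct partners, each list gene past the fold and the most abundant gene of a list, the 3 rows most like *SCNN1A*, and neighbours of members past the fold. Some genes this rule covers are not reported here. A few further list genes and the markers were chosen after seeing their values. The alternatives were other pseudocounts, filters, scalings, folds and row sets. The tools were scipy 1.17.1, numpy 2.4.6, pandas 2.3.3 and matplotlib 3.10.9 under Python 3.11.15.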

Additional observations from a re-analysis of the deposited data

How the results depend on the processing

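The log2 ratios of *SCNN1A* and *SGK1* kept their direction and stayed past 1.5-fold with pseudocounts of 0.1 and 1 FPKM and after either scaling. *SCNN1A* ranged from -1.01 to -0.95 over these settings. With 1 FPKM added, the ratio of *APC* was -1.19. A fold of 2 left 1 of the 5 members that passed (*SCNN1A*), 2 of 62 other transport genes (3.23%) and 280 of 12063 rows (2.32%). Without a filter on low values the counts were 4 of 8 members (50%), 23 of 88 transport genes (26.1%) and 3162 of 16289 rows (19.4%). The added members were *SCNN1D* and *CFTR*, the latter with only about 2 reads and 1 read. With 1 FPKM added the counts were 2 of 62 transport genes (3.23%) and 675 of 12063 rows (5.60%). A mean of at least 5 FPKM left 533 of 9201 rows (5.79%), and rows alone at their locus gave 735 of 9164 (8.02%). The main setting had 1106 of 12063 rows (9.17%), so the number of rows considered fell as well. In the other 60 of 71 comparisons with an alternative no gene's ratio moved by more than its counting interval and no count by more than 1.5 times. The count nearest to that limit was the 4 of 52 transport genes (7.69%) left by a mean of at least 5 FPKM. The median log2 ratio of the members lay between 0.12 and 0.18. It was taken over the 4, 5 or 8 members that a setting kept and was judged by the counting interval of *SLC12A2*. The counting intervals of *SCNN1B*, *SCNN1D* and *CFTR* are so wide that these comparisons cannot show their ratios to be stable. With 1 FPKM added, the log2 ratio of *SCNN1D* went from -0.82 to -0.17, still inside its interval of -1.86 to 0.17. Taking the scrambled library as control was planned and not run. No paired analysis was possible because each group has 1 library, and for the same reason no replicate could be left out. Depth limits *SCNN1B*, *SCNN1G* and *CFTR*, which have at most 2 estimated reads in a library.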
